A study of Mus musculus with 9 samples.

Results

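The genes described here are the laminin chains that build the basement membrane of the mouse mammary gland, namely the alpha chains Lama1, Lama2, Lama3, Lama4 and Lama5, the beta chains Lamb1, Lamb2 and Lamb3, and the gamma chain Lamc1. They were chosen by name as members of the laminin family. These 9 genes belong to a count table of 55450 genes, of which 19357 had enough reads to be tested, all 9 laminins among them. Further laminin genes were not analysed here.

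EYFP+ live cells were sorted by FACS from the mammary glands of adult nulliparous mice, and RNA from them was sequenced in 9 libraries, 3 in each of 3 groups. All mice carried the lsl-EYFP reporter and K8CreERT2, a tamoxifen-inducible Cre driven by the promoter of keratin 8, and all received 2 mg of tamoxifen on 5 consecutive days, with the sort 7 days after the last dose. Control mice carried these alleles alone, written in the labels as lsl-EYFP;K8CreERT2. The second group, LATS1/2f/f;lsl-EYFP;K8CreERT2, is called LATS1/2-KO below, and the third, which carried Sox9f/f besides those alleles, is called LATS1/2-Sox9-KO. LATS1 and LATS2 are kinases of the Hippo pathway that restrain the coactivators YAP and TAZ, and Sox9 is a transcription factor of epithelial progenitors. The sorted population is whatever cells the keratin 8 promoter marked, and EYFP reports that Cre acted on the reporter, not that each floxed allele was lost. The libraries held from 44167762 to 61967651 counted fragments, with a median of 46719296 in control, 57331239 in LATS1/2-KO and 59696754 in LATS1/2-Sox9-KO.

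Laminins are cross-shaped secreted proteins made of an alpha, a beta and a gamma chain. The chains join inside the cell, the short arms link laminins into a sheet, and the end of the alpha chain binds integrins and dystroglycan on the cell surface. In the mammary duct the basement membrane lies under the myoepithelial layer, and contact with laminin is known to matter for the polarity and differentiation of the luminal cells.

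Levels are given as normalized counts, which are counts scaled to the mean effective library size after TMM normalization. Where genes are compared with each other, a per-length level is used instead, in fragments per kilobase of exon, scaled to library size as in FPKM after TMM. A gene is said to have risen or fallen when its adjusted p in edgeR's quasi-likelihood test was at most 0.05, with Benjamini-Hochberg adjustment over all 19357 tested genes, and a log2 fold change is given ± its standard error. Errors on means are SD with n = 3. A gene with fewer than 10 counts in every control library was tested only through the deletion libraries, so its call is a description and supports nothing. Of the genes named here, this holds for Lama2, Col4a3, Frem1, Cspg4, Mmp7, Adipoq, Lep, Cidec and Cfd, and the converse holds for Tll2 and Des, which were tested through control alone.

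The genotype labels were checked first. Lats1 had 5672, 5929 and 5940.4 normalized counts in the control libraries, 2090.1, 1923 and 2336 in those labelled LATS1/2-KO and 2058, 1844 and 1709 in those labelled LATS1/2-Sox9-KO, and it fell in both (log2 fold change -1.47 ± 0.11, adjusted p = 7.07e-06 in edgeR, and -1.64 ± 0.11, adjusted p = 2.8e-06). Lats2 did not follow its label. It had 1039, 865 and 1219.7 normalized counts in control, 1256, 1434 and 1723 in the libraries labelled LATS1/2-KO and 1957, 1580.4 and 1239.7 in those labelled LATS1/2-Sox9-KO, so that all 6 deletion libraries lay above the control range. It rose in LATS1/2-Sox9-KO (0.61 ± 0.201, adjusted p = 0.024 in edgeR) and missed the threshold in LATS1/2-KO (0.499 ± 0.201, adjusted p = 0.0571). Sox9 fell both where it was floxed and where it was not, by edgeR, with 23313, 19948 and 21534 normalized counts in control, 7205, 9506 and 12433 in LATS1/2-KO and 8812, 6756 and 6459.8 in LATS1/2-Sox9-KO. Between the deletion groups Sox9 differed by -0.404 ± 0.19 on the log2 scale (adjusted p = 0.25 in edgeR). Counts cover whole genes, and which exons were flanked by loxP sites is not given in the sources used here, so reads from exons outside the deleted part remain in these values. The names LATS1/2-KO and LATS1/2-Sox9-KO, and deletion libraries for both together, therefore stand for the labels throughout.

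The sorted cells carried the keratins of luminal epithelium. Krt18, a luminal keratin, was the most abundant of 8 luminal epithelial markers in each group, with a mean of 248376 ± 9150.1 normalized counts in control. Of these 8, Krt8 and Krt18 rose and Krt19, Epcam and Cdh1 fell in LATS1/2-KO against control, and in LATS1/2-Sox9-KO 3 rose (Krt8, Krt18 and Cldn3) and 1 fell (Epcam). The 8 luminal markers summed to between 950299 and 1068422 normalized counts in the control libraries, against 4431 to 5541 for 8 myoepithelial markers. In the deletion libraries the myoepithelial sum was between 121918 and 356334, and 3 of the 8 rose and 3 fell in LATS1/2-KO against control. In LATS1/2-Sox9-KO 3 rose (Krt5, Krt14 and Acta2) and 5 fell (Myh11, Cnn1, Mylk, Oxtr and Trp63), with a median log2 fold change of -0.96 beside the higher sum. Most of the sum came from Krt14, a basal keratin with 252969, 140251 and 139506 normalized counts in LATS1/2-KO and 117088, 239974 and 349679 in LATS1/2-Sox9-KO. Trp63, the transcription factor that defines basal cells, went the other way, with a mean of 1553 ± 1022 in control, 54.9 ± 14.8 in LATS1/2-KO and 85.3 ± 45.8 in LATS1/2-Sox9-KO. These are bulk samples, so more cells of a type and more RNA per cell cannot be told apart.

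Markers of other cell types differed between libraries, and their part in the laminin results was not tested except where libraries were left out. The counts of markers that rose or fell stand beside 28.7% of all genes higher and 27.1% lower in LATS1/2-KO against control, and 29.3% and 28.7% in LATS1/2-Sox9-KO. Of 6 adipocyte markers, 5 rose in LATS1/2-KO against control (Adipoq, Fabp4, Lep, Cidec and Cfd), of which Fabp4 alone was tested through both sides. The sum of the 6 was 273, 184 and 289 normalized counts in control, 484, 6590.0 and 3419 in LATS1/2-KO and 87.3, 2068 and 1437 in LATS1/2-Sox9-KO, and the most abundant gene was Fabp4 in control and LATS1/2-Sox9-KO and Cfd in LATS1/2-KO. Cfd, an adipocyte-secreted protease, was at 0 in all 3 control libraries and in LATS1/2-KO replicate 1, and Cidec and Plin1 were also at 0 in that replicate. Lep was at 0 in the 3 control libraries, Adipoq in 2 of them, and Plin1 and Cidec in LATS1/2-Sox9-KO replicate 1. Leaving Fabp4 aside, which endothelial cells also express, the adipocyte sum passed 100 normalized counts in 4 libraries, LATS1/2-KO replicates 2 and 3 and LATS1/2-Sox9-KO replicates 2 and 3. Of 8 fibroblast markers, 4 rose in LATS1/2-KO (Col1a1, Col1a2, Col3a1 and Lum) while Dcn, the most abundant in control, fell. The 8 summed to 2445, 4360.2 and 9575 in control, 10164, 2604 and 3248 in LATS1/2-KO, where Col3a1 led, and 2928, 4081 and 7547 in LATS1/2-Sox9-KO, where it led again. None of the fibroblast markers was at 0 in any library.

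Summed vascular markers were lower in every deletion library than in any control library, though not gene by gene. The 8 endothelial markers summed to between 5259 and 6328 in control, most of it from Vwf with a mean of 5133, and to between 362 and 1087 in the deletion libraries. In LATS1/2-KO against control 1 of the 8 rose (Kdr) and 2 fell (Vwf and Egfl7), and their median log2 fold change was 0.82, opposite in sign to the change of the sum. It was -0.28 in LATS1/2-Sox9-KO. The 7 pericyte and smooth muscle markers summed to between 18233 and 24490.4 in control and to between 4696 and 9789 in the deletion libraries, with Notch3 or Mcam leading, 1 of 6 tested rose and 3 fell in LATS1/2-KO (Des among them), and Kcnj8, a pericyte channel, was at 0 in 2 control libraries and 2 LATS1/2-Sox9-KO libraries. The 5 Schwann cell markers summed to between 5053 and 8751 in control and to between 6077 and 8687 in the deletion libraries, led by Mbp in each group, and 3 of the 5 fell in LATS1/2-KO. The 8 immune markers summed to between 721 and 1124 in control and to between 2095 and 4789 in the deletion libraries, led there by Csf1r, the 1 that rose in LATS1/2-KO, with Cd3e at 0 in all 9 libraries.

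Most laminin chains differed from control in the libraries labelled as deletions, and in both directions. Against control, 4 of the 8 members tested through both sides rose in LATS1/2-KO (Lama3, Lama4, Lamb1 and Lamb3) and 2 fell (Lama1 and Lamb2), while Lama5 and Lamc1 did not pass the test. Lama2 was called higher too, but was tested only through the deletion libraries. The shares over all tested genes were 28.7% higher and 27.1% lower in that comparison, so most genes were called and the members' count stands against a high background. All 6 of these called laminins also passed an absolute log2 fold change of 1, as did 17.1% of all genes upward and 17.5% downward. The median log2 fold change was 1.45 over the 9 members and 0.55 over the 8 without Lama2, against 0.039 over all genes tested. In LATS1/2-Sox9-KO against control Lama3, Lama4, Lamb1 and Lamb3 rose again and 3 members fell, Lamc1 being the addition, where 29.3% of all genes were higher and 28.7% lower, and 4 and 2 of the 8 passed the fold threshold as well (17.8% and 19.6% of all genes). The median there was 1.13 over the 9 members and 0.65 over the 8, against 0.013 over all genes. Both comparisons use the same control libraries.

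**Figure D1:**
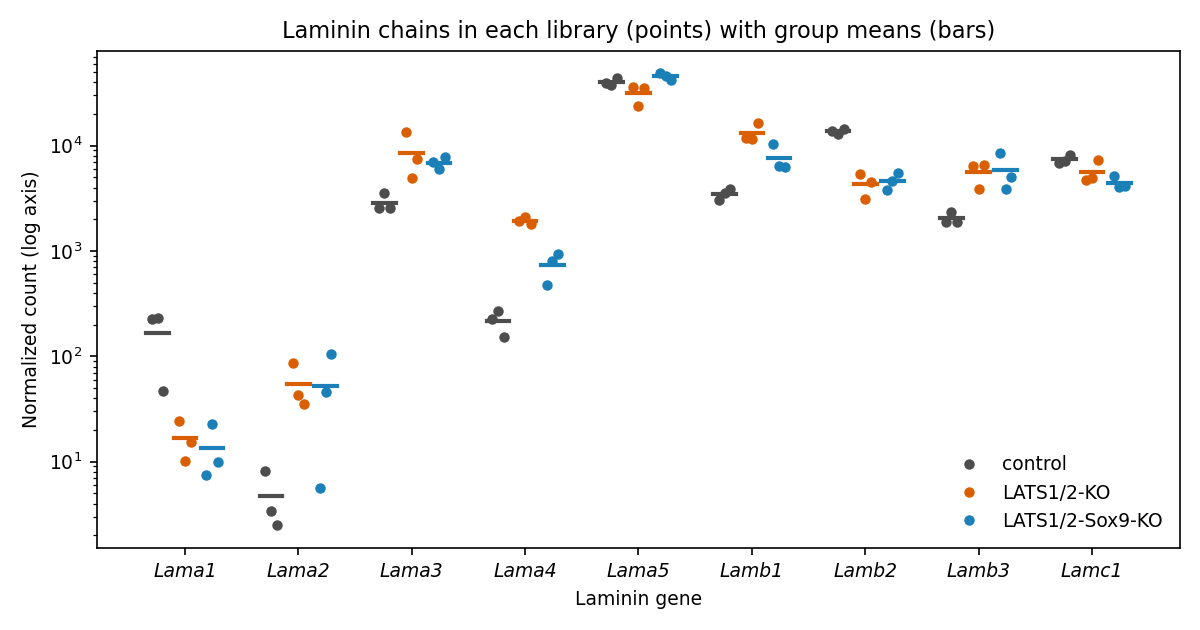
Normalized counts of the 9 laminin chains on a log axis, 1 point per library and a bar at each group mean. Lama4 was between 152 and 266 in control and between 1795 and 2097 in LATS1/2-KO, and Lamb2 was the abundant chain with all 6 deletion libraries below control.

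The beta chains moved in opposite directions. Lamb2 (ENSMUSG00000052911, chr9:108479736-108490530, plus strand on GRCm38) encodes the beta chain of mature basement membranes, including those of the neuromuscular junction and the kidney filter. It had 13783, 12865 and 14502 normalized counts in control, 5424, 3091 and 4504 in LATS1/2-KO and 3787, 4591 and 5459 in LATS1/2-Sox9-KO. The highest deletion library, with 5459, was far below the lowest control library, with 12865. Lamb2 fell 3.16-fold in LATS1/2-KO (log2 fold change -1.66 ± 0.202, adjusted p = 8.93e-05 in edgeR) and 2.97-fold in LATS1/2-Sox9-KO (-1.57 ± 0.202, adjusted p = 0.000104).

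Lamb1 (ENSMUSG00000002900, chr12:31265234-31329644, plus strand) encodes the beta chain that is widespread from the early embryo on. It had 3055, 3578 and 3902 normalized counts in control, 11766, 11501 and 16313 in LATS1/2-KO and 10432, 6396 and 6242 in LATS1/2-Sox9-KO. The 3 groups did not overlap, with LATS1/2-Sox9-KO between the others. Lamb1 rose 3.76-fold in LATS1/2-KO (1.91 ± 0.22, adjusted p = 6.98e-05 in edgeR) and 2.19-fold in LATS1/2-Sox9-KO (1.13 ± 0.22, adjusted p = 0.0014). Lamb3 (ENSMUSG00000026639, chr1:193207699-193343878, plus strand), the beta chain that pairs with the Lama3 product in the laminin of hemidesmosomes, the junctions that rivet epithelial cells to the basement membrane, had 1899, 2330.4 and 1877 normalized counts in control, 6342, 3875 and 6483 in LATS1/2-KO and 8565, 3877 and 5021 in LATS1/2-Sox9-KO. All 6 deletion libraries were above the control range, and the deletion groups overlapped each other. Lamb3 rose 2.73-fold (1.45 ± 0.29, adjusted p = 0.0019 in edgeR) and 2.86-fold (1.52 ± 0.29, adjusted p = 0.00134). The annotated span of Lamb3 overlaps Hsd11b1 on the other strand, which reached at most 136 normalized counts in any library.

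The start regions of the beta chain genes are shown because Lamb2 fell in the same libraries in which Lamb1 and Lamb3 rose. RefSeq start windows, from 250 bases before to 50 bases after a start on GRCm38.p6, were matched for 5 of the 9 members (Lama2, Lama5, Lamb1, Lamb2 and Lamb3). Sequences are printed 5′ to 3′ on the plus strand, and all lines but the last hold only bases outside annotated exons. The first is chr12:31265043-31265233 before Lamb1, the second chr9:108479612-108479735 before Lamb2 and the third chr1:193301744-193301992 before the first of the 2 Lamb3 starts. The last line is a site before the other Lamb3 start, chr1:193302066-193302091, with the letters CATTCC in capitals. It lies past the first Lamb3 start, within annotated exon, since the Lamb3 bases outside exons end at 193301992 and begin again at 193302142.
Lamb1: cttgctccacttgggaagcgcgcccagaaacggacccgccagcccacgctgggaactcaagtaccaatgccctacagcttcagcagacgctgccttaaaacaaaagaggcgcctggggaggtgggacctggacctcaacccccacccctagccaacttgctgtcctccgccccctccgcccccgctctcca
Lamb2: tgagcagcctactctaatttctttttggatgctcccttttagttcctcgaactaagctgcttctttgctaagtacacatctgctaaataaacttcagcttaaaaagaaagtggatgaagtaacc
Lamb3: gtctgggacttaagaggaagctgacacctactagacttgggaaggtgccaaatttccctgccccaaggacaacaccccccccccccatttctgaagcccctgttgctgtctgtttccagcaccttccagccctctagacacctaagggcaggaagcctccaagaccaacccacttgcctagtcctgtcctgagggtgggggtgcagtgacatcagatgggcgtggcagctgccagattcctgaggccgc
Lamb3 site: ggggaccccaCATTCCcagggagctc

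The printed stretch before Lamb1 was 63.9% G or C and held 10 CG pairs in 191 bases. That before Lamb2 was 37.9% G or C with 1 CG pair in 124 bases, and that before Lamb3 was 58.6% G or C with 2 CG pairs in 249 bases. The stretches end at unlike distances before the RefSeq start, 60 bases for Lamb1, 127 for Lamb2 and 2 for the first Lamb3 start. These values therefore do not compare the same part of each window. Motifs were searched on both strands of the 6 member windows. CATTCC, the core bound by the TEAD partners of YAP and TAZ, was found in 1 window, 167 bases before the second Lamb3 start, and is held by 14.7% of all 32851 RefSeq windows of this length. TGANTCA, the AP-1 motif, and ACAATG, a SOX motif, had no match in the member windows and are held by 7.81% and 12.6% of all windows. A match is a run of letters and not a measured binding site, and no match says only that these letters are not in these windows.

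Among the alpha chains, Lama4 had the smallest adjusted p in both comparisons with control. Lama4 (ENSMUSG00000019846, chr10:38965515-39110188, plus strand) encodes a short alpha chain without the amino-terminal domain used for sheet formation, best known from blood vessels, fat and muscle. It had 224, 266 and 152 normalized counts in control, 1929.6, 2097 and 1795 in LATS1/2-KO and 479, 809 and 944 in LATS1/2-Sox9-KO. The 3 groups did not overlap. Lama4 rose 9.05-fold in LATS1/2-KO (3.18 ± 0.28, adjusted p = 1.47e-05 in edgeR) and 3.47-fold in LATS1/2-Sox9-KO (1.795 ± 0.27, adjusted p = 0.000308). LATS1/2-KO replicate 1, with 7.02 normalized counts of the 5 adipocyte markers other than Fabp4, had 1930 of Lama4, between the values of the replicates with 3914 and 2211. In LATS1/2-Sox9-KO the order was different. Replicate 1, with 33.4 of these markers, had the lowest Lama4, 479, below the replicates with 1073 and 518. The part of other cells in the Lama4 values was not tested beyond leaving libraries out. Without the 4 libraries with adipocyte markers, which leaves 1 library in each deletion group whose spread is taken to be that of control, Lama4 was 3.15 (adjusted p = 0.00258) in LATS1/2-KO and 1.18 (adjusted p = 0.039) in LATS1/2-Sox9-KO on the log2 scale.

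Lama3 (ENSMUSG00000024421), the alpha chain of the hemidesmosome laminin, had 2582, 3526 and 2533 normalized counts in control, 13375, 4913 and 7424 in LATS1/2-KO and 6966, 6001 and 7780.5 in LATS1/2-Sox9-KO. Every deletion library was above control, and LATS1/2-KO replicate 1 stood highest. Lama3 rose 2.98-fold in LATS1/2-KO (1.57 ± 0.31, adjusted p = 0.00183 in edgeR) and 2.40-fold in LATS1/2-Sox9-KO (1.26 ± 0.31, adjusted p = 0.00563). In the same fit without the 4 libraries with adipocyte markers, where LATS1/2-KO replicate 1 alone stands for its group, the first value was 2.19 on the log2 scale.

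Lama1 (ENSMUSG00000032796, chr17:67697259-67822647, plus strand), the main alpha chain of the early embryo and of a few adult epithelia, was sparse in the sorted cells. It had 224, 229 and 47.3 normalized counts in control, 24.1, 10.2 and 15.5 in LATS1/2-KO and 7.43, 22.9 and 10.02 in LATS1/2-Sox9-KO. All deletion libraries were below the lowest control library, which itself stood far under the other two. Lama1 fell 10.1-fold in LATS1/2-KO (-3.33 ± 0.68, adjusted p = 0.00206 in edgeR) and 12.4-fold in LATS1/2-Sox9-KO (-3.63 ± 0.69, adjusted p = 0.00125). The second value was -4.22 on the log2 scale without LATS1/2-Sox9-KO replicate 2. With the 4 libraries with adipocyte markers left out the first was -2.81 and no longer passed the test (adjusted p = 0.0971), and the second was -4.44 (adjusted p = 0.0401).

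Lama2 (ENSMUSG00000019899, chr10:26980036-27619758, minus strand), the alpha chain of muscle fibres and peripheral nerve, was the rarest member in control. Its raw counts were 7, 3 and 2 in control, 86, 51 and 39 in LATS1/2-KO and 6, 46 and 115 in LATS1/2-Sox9-KO, so that it entered the test only through the deletion libraries. As normalized counts these were 8.12, 3.40 and 2.49 in control, 86.3, 43.2 and 35.6 in LATS1/2-KO and 5.57, 45.8 and 105 in LATS1/2-Sox9-KO. LATS1/2-Sox9-KO replicate 1 lay inside the control range, and the other 5 deletion libraries were above it. As a description only, the Lama2 log2 fold change was 3.51 ± 0.97 in LATS1/2-KO (adjusted p = 0.0112 in edgeR) and 3.44 ± 0.97 in LATS1/2-Sox9-KO (adjusted p = 0.0118). Without control replicate 1 these values were 4.16 and 4.09, and without LATS1/2-Sox9-KO replicate 3 the second was 2.43 (adjusted p = 0.0536). After the 4 libraries with adipocyte markers were left out they were 4.14 (adjusted p = 0.0118) and 0.26 (adjusted p = 0.853).

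Lama2 and the fibrillar collagens were highest in the same 2 libraries. The summed normalized counts of Col1a1, Col1a2 and Col3a1, which are collagens of connective tissue, were 457, 618 and 1069 in control, 8233, 2035 and 1848 in LATS1/2-KO and 2833, 3838 and 6904 in LATS1/2-Sox9-KO. LATS1/2-KO replicate 1 and LATS1/2-Sox9-KO replicate 3 led in both measures. Elsewhere the order differed. LATS1/2-Sox9-KO replicate 1 had 2833 of the collagens and 5.57 of Lama2, and LATS1/2-KO replicate 3 had 1848 and 35.6. The part of these cells or of this RNA in the Lama2 values was not tested.

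**Figure D2:**
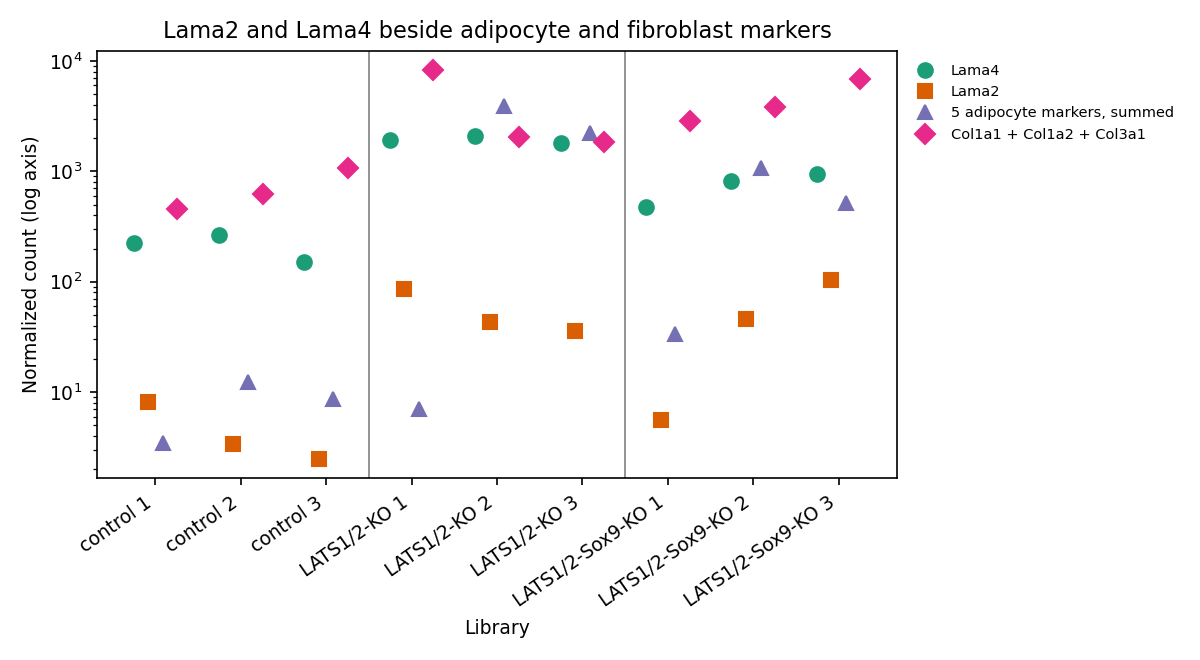
Normalized counts on a log axis in each of the 9 libraries for Lama4, Lama2, the sum of 5 adipocyte markers (Adipoq, Plin1, Lep, Cidec and Cfd) and the sum of 3 fibrillar collagens. LATS1/2-KO replicate 1 had 1930 normalized counts of Lama4 beside 7.02 of the adipocyte markers, and LATS1/2-Sox9-KO replicate 1 had 479 beside 33.4. Lama2 was highest where the collagen sum was highest, in LATS1/2-KO replicate 1 and LATS1/2-Sox9-KO replicate 3.

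Lama5 and Lamc1 were the abundant members that moved least. Lama5 (ENSMUSG00000015647, chr2:180176373-180225859, minus strand) encodes the alpha chain found under most adult epithelia. It had 39675, 37531 and 43959 normalized counts in control, 36340.0, 23831 and 34941 in LATS1/2-KO and 48583, 45581 and 42289 in LATS1/2-Sox9-KO. Its log2 fold change was -0.35 ± 0.16 in LATS1/2-KO (adjusted p = 0.0821 in edgeR) and 0.17 ± 0.16 in LATS1/2-Sox9-KO (adjusted p = 0.372), neither past the threshold. Without LATS1/2-KO replicate 1 the first was -0.45 and passed it (adjusted p = 0.0428). After adjustment for the GC content of genes, of which Lama5 has the most among the members, the values were 0.19 (adjusted p = 0.242) and 0.67 (adjusted p = 0.00139), so the direction of the first turned and the second passed the test.

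Lamc1 (ENSMUSG00000026478, chr1:153218922-153332786, minus strand) encodes the gamma chain shared by most laminins. It had 6906, 7184 and 8181 normalized counts in control, 4727, 4902 and 7315 in LATS1/2-KO and 5181, 4062 and 4128 in LATS1/2-Sox9-KO. LATS1/2-KO overlapped control through its replicate 3, whereas all LATS1/2-Sox9-KO libraries were below control. Lamc1 fell in LATS1/2-Sox9-KO (-0.74 ± 0.18, adjusted p = 0.00512 in edgeR) and did not pass in LATS1/2-KO (-0.39 ± 0.18, adjusted p = 0.0829), though it did without LATS1/2-KO replicate 3 (-0.62, adjusted p = 0.00659). Leaving out the 4 libraries with adipocyte markers made these -0.496 (adjusted p = 0.0552) and -0.67 (adjusted p = 0.0252). The span of Lamc1 holds a pseudogene on the other strand, Gm8818, which had up to 629 normalized counts.

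**Figure D3:**
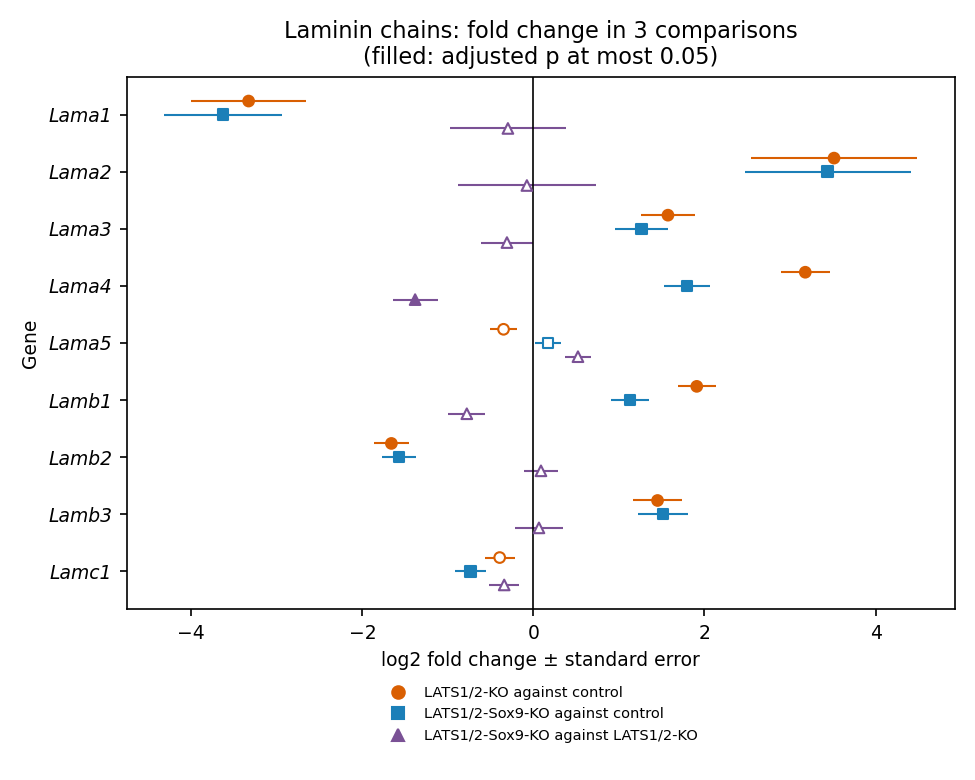
log2 fold change ± standard error of the 9 laminin chains in the 3 comparisons, with filled symbols where the adjusted p was at most 0.05 in edgeR. Lama2, Lama3, Lama4, Lamb1 and Lamb3 were higher and Lama1 and Lamb2 lower in both comparisons with control, and Lama4 was the 1 chain called between the deletion groups, at -1.38.

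The third group carried the floxed Sox9 alleles besides those of LATS1 and LATS2, and the question was what differed with them, although Sox9 itself did not pass the test between the deletion groups. Between LATS1/2-Sox9-KO and LATS1/2-KO, 0 of the 9 laminins were higher and 1 was lower, Lama4, where 3.13% of all tested genes were higher and 3.33% lower. At an unadjusted p under 0.05 in edgeR, 1 laminin was higher and 2 were lower, and DESeq2 called 1 higher. At the fold threshold the background was 1.55% and 2.16%. Lama4 was 2.61-fold lower in LATS1/2-Sox9-KO (-1.38 ± 0.26, adjusted p = 0.018 in edgeR), with all 3 of its libraries below all 3 of LATS1/2-KO. The call was lost when either of 2 libraries was left out, with an adjusted p of 0.0512 without LATS1/2-KO replicate 3 and 0.0699 without LATS1/2-Sox9-KO replicate 2. Without the 4 libraries with adipocyte markers it was -1.97 (adjusted p = 0.15), from 1 library against 1.

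Lamb1 and Lama5 had the next smallest adjusted p in edgeR in this comparison, but they missed the threshold. Lamb1 was -0.78 ± 0.22 on the log2 scale (adjusted p = 0.0629 in edgeR) and Lama5 0.52 ± 0.16 (adjusted p = 0.0793). DESeq2 and the fit with no filter called both, Lamb1 lower and Lama5 higher, and Lamb1 was also called with upper-quartile factors and without LATS1/2-Sox9-KO replicate 1, and Lama5 without LATS1/2-KO replicate 1. Without the 4 libraries with adipocyte markers, Lamb1 was at -0.13 (adjusted p = 0.82) and Lama5 at 0.46 (adjusted p = 0.321). The other 6 chains differed by between -0.34 ± 0.18 (Lamc1) and 0.088 ± 0.198 (Lamb2). Lama2 had the widest error (-0.076 ± 0.803), and these values do not show that the chains were alike in both deletion groups. The median member log2 fold change was -0.30, against -0.015 over all genes.

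The order of the chains was read from per-length levels, as a description. In control the order was Lama5 (65.9 ± 5.34), Lamb2 (41.9 ± 2.51), Lamc1 (16.7 ± 1.51), Lamb1 (6.58 ± 0.800), Lamb3 (5.72 ± 0.719), Lama3 (4.98 ± 0.968), Lama4 (0.330 ± 0.0892), Lama1 (0.320 ± 0.199) and Lama2 (0.00531 ± 0.00344), on the per-length scale. Lamb1, Lamb3 and Lama3 could not be ordered, since the libraries of each overlapped those of the next, and neither could Lama4 and Lama1. In LATS1/2-KO, Lama5 (51.7 ± 11.2) was followed by Lamb1 (24.7 ± 5.07), and Lamb3, Lama3, Lamb2 and Lamc1 came next with overlapping libraries between 12.7 ± 3.25 and 15.6 ± 4.12. Lamb1 and Lama3 could not be ordered there, since the highest Lama3 library (23.1) lay above the lowest Lamb1 library (21.5). In LATS1/2-Sox9-KO, Lama5 stood at 74.2 ± 5.14, and the next 5 chains, Lamb3, Lamb1, Lamb2, Lama3 and Lamc1, each overlapped the next, from 16.4 ± 6.87 down to 10.01 ± 1.41.

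As shares of the summed per-length level, the leading beta chain differed between groups while Lama5 led the alpha chains throughout. Lamb2 made up 79.2, 74.8 and 77.9% of the beta level in the control libraries, 29.4, 22.5 and 22.00% in LATS1/2-KO and 20.97, 38.00 and 39.3% in LATS1/2-Sox9-KO. Lamb1 made up 12.1% ± 1.18 in control, 46.5% ± 6.54 in LATS1/2-KO and 31.8% ± 3.99 in LATS1/2-Sox9-KO. Lamb3 made up 10.6% ± 1.67, 28.9% ± 2.79 and 35.5% ± 7.31 in the same order of groups. By exon length, Lamb2 was the leading beta transcript in each control library and Lamb1 in each LATS1/2-KO library, whereas in LATS1/2-Sox9-KO the leader was Lamb3 in replicate 1 and Lamb2 in replicates 2 and 3. By coding length the mean shares in LATS1/2-Sox9-KO were 41.5% for Lamb3, 35.7% for Lamb1 and 22.8% for Lamb2, so that Lamb2 had the smallest mean there and not, as by exon length, the middle one.

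Lama5 remained the leading alpha transcript in all 9 libraries, with 92.5, 89.8 and 93.8% of the alpha level in control, 69.3, 76.7 and 78.4% in LATS1/2-KO and 86.1, 86.4 and 82.1% in LATS1/2-Sox9-KO. Lama3 took 7.02% ± 1.70 in control, 20.5% ± 5.69 in LATS1/2-KO and 13.7% ± 2.05 in LATS1/2-Sox9-KO. Lama4 took 0.467% ± 0.150, 4.55% ± 1.59 and 1.33% ± 0.476, and by coding length 1.004%, 9.27% and 2.81%. The summed level was 71.5 ± 4.33, 69.6 ± 17.6 and 87.4 ± 4.17 for the alpha chains and 54.2 ± 2.34, 53.6 ± 10.6 and 44.9 ± 9.37 for the beta chains, on the per-length scale. These are transcript shares, and the trimers in the matrix were not measured.

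**Figure D4:**
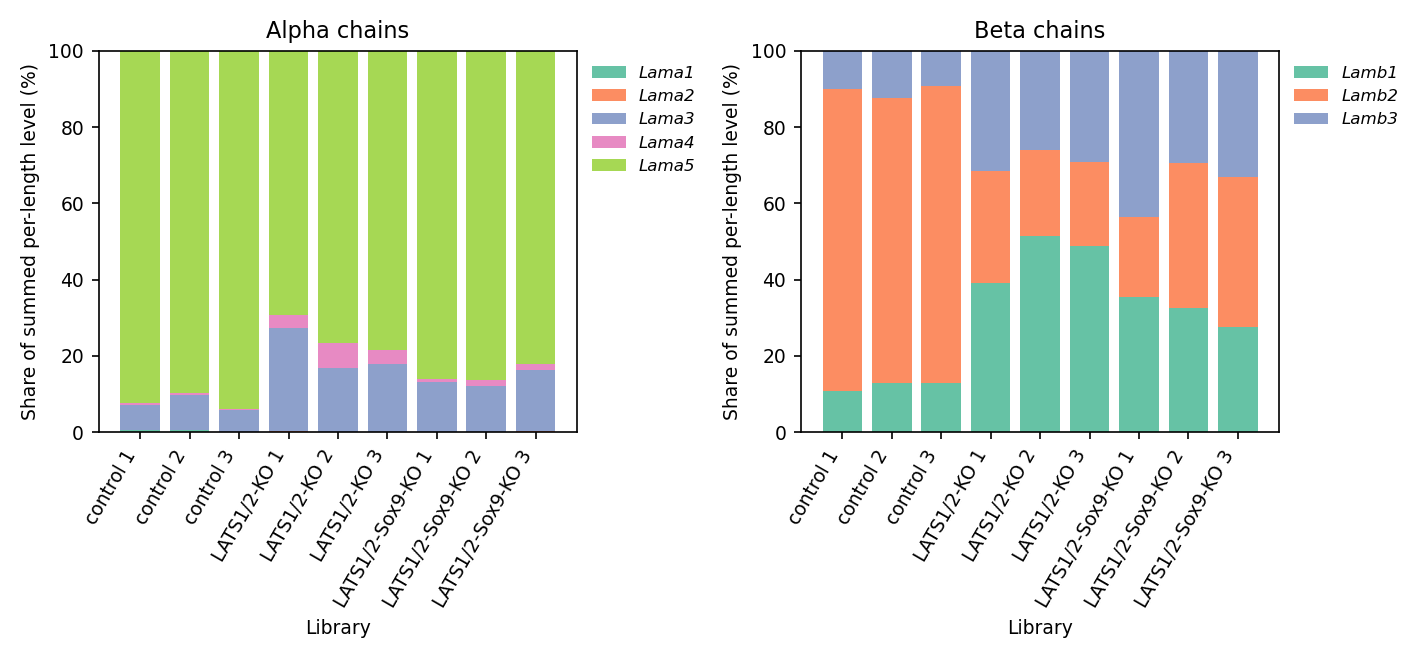
Share in percent of each alpha chain (left) and each beta chain (right) in the summed per-length level of its class, 1 bar per library. Lamb2 was between 74.8% and 79.2% of the beta level in control and between 20.97% and 39.3% in the deletion libraries, and Lama5 stayed the largest alpha share in every library.

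Each member was also set beside the genes whose normalized counts followed it most closely over the 9 libraries. By Pearson correlation of log2 values, the closest genes reported were Arsb (0.97) for Lama1, Nmral1 (0.98) and Col6a2 (0.96) for Lama2, Kif2a (0.97) and Kdelc2 (0.97) for Lama3, and Zbtb41 (0.99) and Hmgb2 (0.99) for Lama4. For Lama5 they were Pdzd4 (0.97) and Ppp4c (0.95). Among the others they were Jmy (0.99) and Slc39a13 (0.99) for Lamb1, Endog (0.99) and Bcl2l14 (0.99) for Lamb2, Slco3a1 (0.98) and Gemin5 (0.97) for Lamb3, and Phc1 (0.98) and Strn4 (0.97) for Lamc1. With 9 libraries in 3 groups, any gene with the same differences between groups gives a high value, so these are descriptions only.

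Receptors of laminin also changed in both directions. Of 13 receptor genes, 6 rose in LATS1/2-KO against control (Itga3, Itga7, Itgb1, Sdc1, Cd151 and Cspg4) and 2 fell (Itga6 and Sdc4), where 28.7% of all genes were higher and 27.1% lower. Without Cspg4, 5 of 12 rose. The median log2 fold change was 0.42 over the 13 and 0.38 over the 12. Itgb1, the beta subunit shared by most laminin-binding integrins, had 30044, 28970.3 and 33709 normalized counts in control, 129534, 121860.0 and 119978 in LATS1/2-KO and 124203, 92135 and 100899.5 in LATS1/2-Sox9-KO. All deletion libraries were well above control, and Itgb1 rose 4.01-fold and 3.42-fold (adjusted p = 3.11e-06 and 3.38e-06 in edgeR).

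Its alpha partners went opposite ways. Itga3, which pairs with Itgb1 to bind the laminins of Lama3 and Lama5, had 6326, 7114 and 13491 normalized counts in control, 31474, 18075 and 36073 in LATS1/2-KO and 63209, 43463 and 44055 in LATS1/2-Sox9-KO, and rose in both comparisons (1.67 ± 0.33, adjusted p = 0.00182, and 2.48 ± 0.34, adjusted p = 0.00016 in edgeR). Itga6, which pairs with Itgb1 or with Itgb4, had 18924, 21239 and 21585 in control, 8489.8, 10249 and 11212 in LATS1/2-KO and 10541, 8978 and 9011 in LATS1/2-Sox9-KO, and fell 2.06-fold and 2.16-fold (adjusted p = 8.74e-05 and 4.86e-05 in edgeR). Itga3 was therefore above and Itga6 below the control range in all 6 deletion libraries. Itgb4, the hemidesmosome subunit, had values of 0.34 ± 0.25 and 0.34 ± 0.25 and did not pass the test (adjusted p = 0.271 and 0.255 in edgeR). Itga7, a laminin-binding alpha subunit of muscle, rose by 1.84 ± 0.49 in LATS1/2-KO (adjusted p = 0.00936 in edgeR).

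Receptors other than integrins moved both ways too. Sdc1, a cell-surface heparan sulfate proteoglycan of epithelia, had 6579.9, 6054 and 7215 normalized counts in control, 19418, 9452 and 13216 in LATS1/2-KO and 32660.1, 33586 and 39629 in LATS1/2-Sox9-KO. It rose in both groups and was the 1 receptor called between them, 2.52-fold higher in LATS1/2-Sox9-KO (1.33 ± 0.22, adjusted p = 0.0121 in edgeR), a call lost without LATS1/2-KO replicate 3 and without the 4 libraries with adipocyte markers. Sdc4, its relative at focal adhesions, fell by -1.35 ± 0.21 and -1.71 ± 0.22 on the log2 scale (adjusted p = 0.00046 and 9.2e-05 in edgeR). Dag1, the gene of dystroglycan, fell in LATS1/2-Sox9-KO (-0.83 ± 0.17, adjusted p = 0.00183 in edgeR) and did not pass in LATS1/2-KO (-0.29 ± 0.17, adjusted p = 0.171). Bcam, an immunoglobulin-family receptor of the Lama5 chain, had values of 0.12 ± 0.25 and -0.21 ± 0.25 and passed neither test. In LATS1/2-Sox9-KO against control, 6 of the 13 receptors rose and 3 fell, beside 29.3% and 28.7% of all genes.

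Among 23 other basement membrane genes, 21 were tested through both sides, and of these 10 rose and 3 fell in LATS1/2-KO, and 8 rose and 6 fell in LATS1/2-Sox9-KO (Col4a4, Col4a6, Frem2, Egflam, Smoc1 and Smoc2), each against control. Over all genes 28.7% rose and 27.1% fell in the first comparison and 29.3% and 28.7% in the second, so the lower count in LATS1/2-Sox9-KO was near the background. Col4a3 and Frem1 were called higher in both comparisons besides, through the deletion libraries alone, which makes 12 and 10 of the 23. The median log2 fold change in LATS1/2-KO was 0.72 over the 21 and 0.85 over the 23. Frem1 was at 0 in all control libraries, which leaves its fold unmeasured but on the upper side of the latter. Without the 4 libraries with adipocyte markers, 6 of the 23 in place of 10 rose in LATS1/2-Sox9-KO, and without LATS1/2-KO replicate 1, 5 in place of 3 fell in LATS1/2-KO.

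The collagen IV chains form the second network of the sheet. Col4a2 had 296, 328 and 128 normalized counts in control, 2947, 3444 and 4875 in LATS1/2-KO and 662, 1774 and 2329 in LATS1/2-Sox9-KO, and rose by 3.903 ± 0.498 and 2.66 ± 0.48 (adjusted p = 0.00012 and 0.000857 in edgeR). Col4a1, its neighbour and partner chain, rose in LATS1/2-KO (1.87 ± 0.402, adjusted p = 0.00291 in edgeR) and was at 0.48 ± 0.39 in LATS1/2-Sox9-KO (adjusted p = 0.32). Col4a3, from another collagen IV trimer, had 2.32, 0 and 0 in control, 53.2, 236 and 316 in LATS1/2-KO and 79.8, 51.8 and 21.9 in LATS1/2-Sox9-KO and was called higher in both, with too few control counts for a fold. Col4a6 was not among the genes named by rule and was added after its values were seen. As a description, its log2 fold change was -0.901 ± 0.11 in LATS1/2-KO, -1.501 ± 0.11 in LATS1/2-Sox9-KO and -0.600 ± 0.105 between the deletion groups.

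Hspg2, Agrn and Col7a1 are linkers or anchors of the sheet that rose in both comparisons with control. Hspg2, which encodes perlecan, had 2381, 1579.7 and 713 normalized counts in control, 8317, 4598 and 7367 in LATS1/2-KO and 7917, 4594 and 4952 in LATS1/2-Sox9-KO and rose by 2.12 ± 0.41 and 1.901 ± 0.41 (adjusted p = 0.00152 and 0.00252 in edgeR). Agrn, which encodes agrin, a laminin-binding proteoglycan, rose 1.86-fold and 2.01-fold. Col7a1, the collagen of anchoring fibrils bound to the hemidesmosome laminin, rose 5.43-fold and 4.23-fold (adjusted p = 0.00134 and 0.00291 in edgeR). Nid1, which encodes the laminin linker nidogen, had 232, 432 and 1231 in control, 2008, 484 and 1127 in LATS1/2-KO and 1103, 701 and 844 in LATS1/2-Sox9-KO, and passed neither test.

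In LATS1/2-KO, Egflam and Smoc2 fell the furthest of this list. Egflam, which encodes pikachurin, a dystroglycan ligand with laminin G domains, had 2009, 2286 and 1759 normalized counts in control, 99.3, 16.1 and 49.2 in LATS1/2-KO and 24.1, 5.98 and 8.20 in LATS1/2-Sox9-KO (-5.21 ± 0.604 and -7.28 ± 0.69, adjusted p = 6.62e-05 and 1.5e-05 in edgeR). Smoc2, a secreted matricellular protein, went from 339 ± 56.4 in control to 9.48 ± 2.68 and 8.55 ± 6.61. Between the deletion groups Tinagl1, a secreted basement membrane protein, was 1.76-fold higher in LATS1/2-Sox9-KO (adjusted p = 0.0479 in edgeR), and Smoc1 and Col18a1, the latter the collagen that yields endostatin, were 3.30-fold and 2.08-fold lower (adjusted p = 0.0225 and 0.0415). Leaving out LATS1/2-Sox9-KO replicate 1, 2 or 3 took the 3 lower calls of this list, Col4a6 included, to 1, 0 and 1, and the higher call was lost without control replicate 1 or 2, LATS1/2-KO replicate 2 or 3 or any LATS1/2-Sox9-KO replicate.

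**Figure D5:**
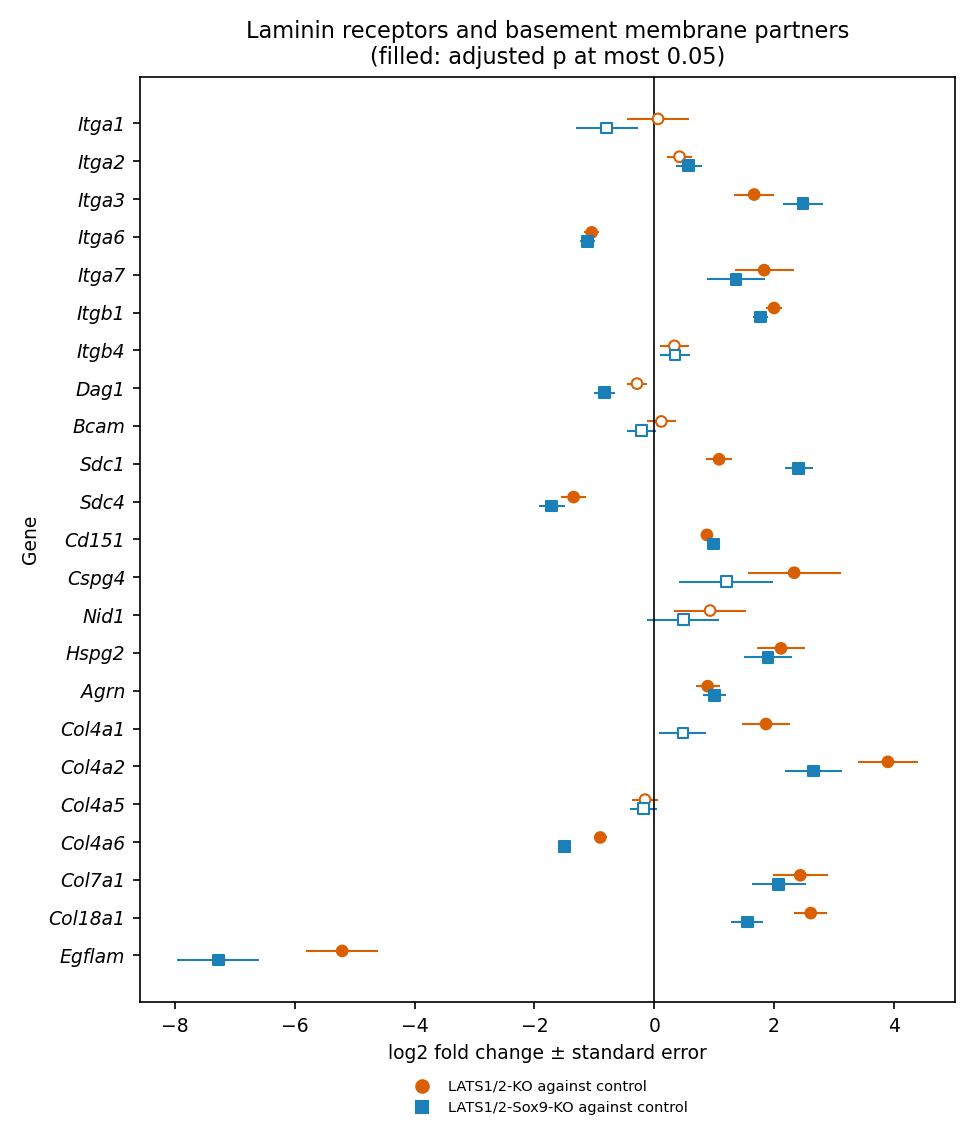
log2 fold change ± standard error of 13 laminin receptors and 10 basement membrane genes in both comparisons with control, filled where the adjusted p was at most 0.05 in edgeR. Itgb1 and Itga3 lay to the right and Itga6 and Sdc4 to the left in both comparisons, and Egflam lay furthest to the left.

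Of 12 genes for enzymes that build the laminin-binding glycan of dystroglycan, 3 rose in LATS1/2-KO, Rxylt1 among them, and 5 fell, among them Pomt1, Pomt2, Pomgnt1 and Pomgnt2, with a median log2 fold change of -0.38. The share of all genes was 28.7% higher, near that of the list, and 27.1% lower. Pomt1, which starts the glycan with O-mannose, had 2107, 2733 and 5126 normalized counts in control, 856, 428 and 416 in LATS1/2-KO and 962, 709 and 808 in LATS1/2-Sox9-KO and fell 5.87-fold and 4.02-fold (adjusted p = 0.00029 and 0.00101 in edgeR). Pomgnt1 fell 2.66-fold and 1.98-fold. Rxylt1, which adds a xylose to the core, rose by 1.34 ± 0.13 and 1.004 ± 0.13. In LATS1/2-Sox9-KO against control, 2 of the 12 rose and 2 fell, where 29.3% and 28.7% of all genes did. The 5 lower calls in LATS1/2-KO were 3 after GC adjustment and 3 without control replicate 1 or 2 or LATS1/2-KO replicate 2 or 3. In LATS1/2-KO, 1 rose and 3 fell without the 4 libraries with adipocyte markers, and in LATS1/2-Sox9-KO, 4 fell without its replicate 1.

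Of 10 genes for proteases able to cut laminin or its neighbours, 6 rose (Mmp2, Mmp3, Mmp7, Mmp14, Plau and Plat) and 1 fell (Tll2) in LATS1/2-KO, where 28.7% of all genes were higher and 27.1% lower. In LATS1/2-Sox9-KO 4 rose (Mmp2, Mmp3, Mmp7 and Plau) and 1 fell, where 29.3% of all genes were higher and 28.7% lower. Of the 8 tested through both sides, which leaves out Mmp7 and Tll2, 5 rose in LATS1/2-KO and 3 in LATS1/2-Sox9-KO. Plau, the urokinase that activates plasminogen, had 993, 1339 and 2587 normalized counts in control, 72431, 55739.7 and 80512 in LATS1/2-KO and 121057, 79177 and 76034 in LATS1/2-Sox9-KO (5.41 ± 0.39 and 5.81 ± 0.398, adjusted p = 4.92e-06 and 2.57e-06 in edgeR). Mmp2, a gelatinase, had 42.9, 64.6 and 49.8 in control, 231, 219 and 165 in LATS1/2-KO and 161, 194 and 255 in LATS1/2-Sox9-KO and rose 3.90-fold and 3.87-fold. Mmp3, stromelysin, had 0, 9.07 and 13.7 in control, 233, 114 and 37.4 in LATS1/2-KO and 35.3, 37.9 and 203 in LATS1/2-Sox9-KO. Its highest values were in LATS1/2-KO replicate 1 and LATS1/2-Sox9-KO replicate 3, the libraries with the highest collagen sums. The lower call, Tll2, was lost in LATS1/2-Sox9-KO without any 1 control library or its own replicate 2 or 3 and in LATS1/2-KO without control replicate 3, and 2 in place of 4 rose there without LATS1/2-Sox9-KO replicate 3.

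Netrins share the short-arm domains of laminins. Of 6 netrin genes, 4 were tested, and 0 rose in edgeR in any of the 3 comparisons, nor did any by DESeq2 or at an unadjusted p under 0.05. Over all genes 28.7% rose in LATS1/2-KO, 29.3% in LATS1/2-Sox9-KO and 3.13% between the deletion groups. The number that fell was 1 in LATS1/2-KO, 2 in LATS1/2-Sox9-KO and 1 between the deletion groups, where 27.1%, 28.7% and 3.33% of all genes did, so the first was near the background. Ntn3 was the gene that fell in LATS1/2-KO, at a mean of 28.9 ± 19.3 normalized counts in control and 7.52 ± 3.40 in LATS1/2-KO, a call lost without LATS1/2-KO replicate 2 or 3. Ntng1, a membrane-anchored netrin, had 1504, 1435 and 556 in control, 538, 752 and 706 in LATS1/2-KO and 149, 161 and 229 in LATS1/2-Sox9-KO. It fell, with Ntn3, in LATS1/2-Sox9-KO against control (-2.697 ± 0.37, adjusted p = 0.000147 in edgeR) and against LATS1/2-KO (-1.89 ± 0.36, adjusted p = 0.017), and the second call was lost without LATS1/2-KO replicate 3 or LATS1/2-Sox9-KO replicate 1 or 2.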

How the data were processed

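RNA was measured in 9 libraries of sorted EYFP+ mammary cells, grouped by the genotype in the labels. The authors aligned reads to mm10 with STAR 2.6.0c and used featureCounts (Subread 1.6.2) to count properly paired, uniquely placed fragments for each Ensembl gene outside the mitochondrion, and deposited raw counts per gene and library, without pooling. The labels do not say whether a library came from 1 animal, so p-values measure the spread between these libraries.

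Here, counts were fitted in R 4.3.3 with edgeR 4.0.16 (filterByExpr, TMM, 3 group means, quasi-likelihood test), with DESeq2 1.42.0 as an alternative, and the fit was tested on simulated data. P-values were adjusted by Benjamini-Hochberg over 19357 genes. With 3 libraries against 3, an exact permutation test could not reach 0.05, so none was used. Per-length levels used the union of GENCODE M21 exons (GRCm38), and promoter sequences came from RefSeq. The authors counted same-strand pairs from a kit that does not mark strand, so reads of overlapping genes on opposite strands cannot be told apart. No libraries of a group were alike within sampling noise (chi-square per gene of 16.4 to 129).

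The members and lists were chosen with earlier results of these data known. Named genes were the members, the targeted genes, fixed receptors and partners, the most abundant marker of each list, and from each list the 2 largest rises and 2 largest falls per comparison where the higher group averaged 100 normalized counts or more. Some genes that met this rule or the likeness rule are not reported here. Alternatives were other normalizations and filters, GC content, coding length, the replicate number as a block, the compared groups alone and each library left out. Leaving out the 4 libraries with adipocyte markers was chosen after seeing the data.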

Additional observations from a re-analysis of the deposited data

How the results depend on the processing

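Against control, Lama3, Lama4, Lamb1 and Lamb3 stayed higher and Lama1 and Lamb2 lower under every alternative in which they were tested. The exceptions to their calls are given with each gene. Lama2, tested only through the deletion libraries, kept its sign as a description. Its log2 fold change in LATS1/2-Sox9-KO went as low as 0.26. With the compared groups alone Lama2 was not tested in LATS1/2-Sox9-KO. With at least 10 counts in every library Lama1 and Lama2 were not tested, so 1 member was lower in LATS1/2-KO by either rule and 1 in LATS1/2-Sox9-KO by both thresholds. Without the 4 libraries with adipocyte markers, 1 was lower in LATS1/2-KO by both thresholds (Lamb2) and 2 by the adjusted p (Lamb2 and Lamc1). Between the deletion groups the number higher by the adjusted p was 1 with DESeq2 and with no filter, and 0 to 1 with each library left out. The number lower by the adjusted p was 2 with DESeq2, upper-quartile factors and no filter, where Lamb1 did not reach the fold threshold. With each library left out the number lower was 0 to 2 by either rule. Over all genes, 1249 were called there with edgeR, 2400 with DESeq2, 249 to 2044 with each library left out and 76 without the 4 libraries. The share of its calls that were higher was 48.4%, against 39.4% with upper-quartile factors, 62.2% and 59.6% without LATS1/2-Sox9-KO replicate 2 or 3, and 68.4% without the 4 libraries. Values that changed sign between the deletion groups, with each library left out, ranged over -0.88 to 0.063 for Lama1, -1.08 to 0.49 for Lama2, -0.56 to 0.17 for Lama3, -0.075 to 0.28 for Lamb2 and -0.29 to 0.32 for Lamb3, and without the 4 libraries Lamb2 was at -0.47 and Lamc1 at 0.18, while Lama2 went from -0.076 ± 0.803 to -3.88 (adjusted p = 0.201 in edgeR) and Lama1 from -0.298 ± 0.68 to -1.63 (adjusted p = 0.587). The cause was not tested. GC adjustment turned Lama5 in LATS1/2-KO to 0.19. With coding length, the Lamb1 share was 17.2% in control and the Lamb2 share 67.1% in control and 16.4% in LATS1/2-KO, the Lamb3 share was 15.7% and 33.0% in those groups, and the Lama4 shares are given above. Replicate numbers did not clearly pair the libraries. Deviations of same-numbered libraries correlated by -0.066 to 0.170 and those of differently numbered ones by -0.164 to 0.064. Between the deletion groups the same-numbered values were 0.105, 0.170 and -0.032. With the replicate block no member call changed, for example Lama4 at 3.19 in LATS1/2-KO (adjusted p = 6.78e-05 in edgeR), and with the block and GC adjustment together Lama5 was at 0.18 in LATS1/2-KO and Lamb3 at -0.020 between the deletion groups. Depth limits Lama2 most, with 2 to 7 counts per control library.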
